A study of Mus musculus with 235 samples.

Results

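Potassium channel genes were taken as the genes of the count table whose symbol begins with Kcn, without the transcripts whose symbols end in os or ot, and with a mean of at least 5 CPM (counts scaled to a library total of 1000000) over all 235 libraries. Of 27998 genes, 94 had such a symbol and 57 reached the level. The 57 comprised 5 genes of the voltage-gated Kv1 family, 8 of the Kv2 and silent subunits, 4 of Kv3, 3 of Kv4, 4 of the EAG, ERG and ELK group, 3 KCNQ genes, 4 calcium-activated and 2 sodium-activated channels, 8 inward rectifiers, 6 two-pore channels and 10 auxiliary subunits. Just inside the level lay Kcns2 at 5.07 CPM and Kcnk10 at 5.31 CPM, and just outside it lay Kcnj13 at 4.80 CPM and Kcng4 at 3.62 CPM. Together the members took 0.34% of all counts.

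Potassium channels let potassium leave the cell and so set the resting potential, end the action potential and limit repetitive firing. Voltage-gated members open on depolarisation, calcium- and sodium-activated members open when these ions enter the cell, inward rectifiers and two-pore channels carry current near rest, and auxiliary subunits change the gating and surface delivery of the pore-forming subunits. Glial cells also depend on them, astrocytes for the uptake of extracellular potassium and microglia for their resting potential.

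The libraries came from 8 regions punched from coronal brain sections of 30 male C57Bl/6 mice aged 3 months. In the dexamethasone arm 15 mice were injected intraperitoneally with 10 mg per kg of this synthetic glucocorticoid, the 15 mice of the vehicle arm received saline, and all brains were perfused 4 h later. The regions carry the labels PFC, AMY, PVN, CER, dCA1, vCA1, dDG and vDG, used here as given, and each arm of each region held 13 to 15 libraries, each from a separate animal. The libraries hold tags from the 3′ ends of transcripts with molecular identifiers, and levels are compared between samples for 1 gene and not between genes.

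The depth per library was 268538 to 1451422 counts (median 742957), so a gene at 5 CPM rests on few counts. All CER vehicle libraries had 0 counts of Gabra6, which marks granule cells of the cerebellum, whereas 7 of the 30 vDG libraries and 1 library each of vCA1, CER and PFC held it at over 10 CPM, up to 337 CPM. Dentate granule cell markers were high in dCA1 as well as in dDG, with medians of 661 and 503 CPM summed over 6 genes in vehicle. Their mean log2(CPM + 1), called the dentate level, was 3.29 in vCA1 after vehicle and 4.21 after dexamethasone, and 6.27 and 5.86 in dCA1. In dDG it was 5.90 and 5.97, and in vDG 4.16 and 4.24. Of the 6 markers Dsp and Npnt were called higher after dexamethasone in vCA1 and Plk5 lower in dCA1, where the median sum went from 661 to 477 CPM. The authors' variance-stabilised tables leave out 7 of the libraries. Results were recomputed without the 10 libraries holding Gabra6 and without those 7, and both values are given where a call changed. In bulk tissue, fewer cells of a type and less RNA per cell cannot be told apart.

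The first comparison asked where in the brain each channel gene was expressed, in the vehicle libraries alone and with the animal as a block. Of 49 members that could be tested, 48 differed among the 8 regions (edgeR quasi-likelihood test, adjusted p under 0.05), against 73.3% of all genes tested. Kcnd3, a Kv4 subunit of the fast transient current of dendrites, did not pass (adjusted p 0.132), with region means between 39.6 CPM in CER and 56.3 CPM in vDG. Kcna5, Kcnd1, Kcnj12, Kcnk10, Kcnk12, Kcnn1, Kcns1 and Kcns2 were too low to be tested here.

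Each region was then set against the mean of the other 7. PVN stood apart for 43 of the 49 members (87.8%, against 41.1% of all genes), 15 higher and 28 lower (20.2% and 20.9% of all genes), and CER for 42 (85.7%, against 47.9%), 15 higher and 27 lower (24% and 23.9% of all genes). The median difference over the members was -0.30 (log2) in PVN and -0.29 in CER, against 0.00 and -0.01 over all genes tested. In dCA1 37 members differed (75.5%, against 39.1%), in dDG 33 (67.3%, against 32.8%) and in AMY 28 (57.1%, against 25.2%). In PFC 24 differed (49.0%, against 39.5%), in vCA1 23 (46.9%, against 19.7%) and in vDG 15 (30.6%, against 10.6%). The share of channel genes that passed was above the share of all genes in each of the 8 regions.

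**Figure D1:**
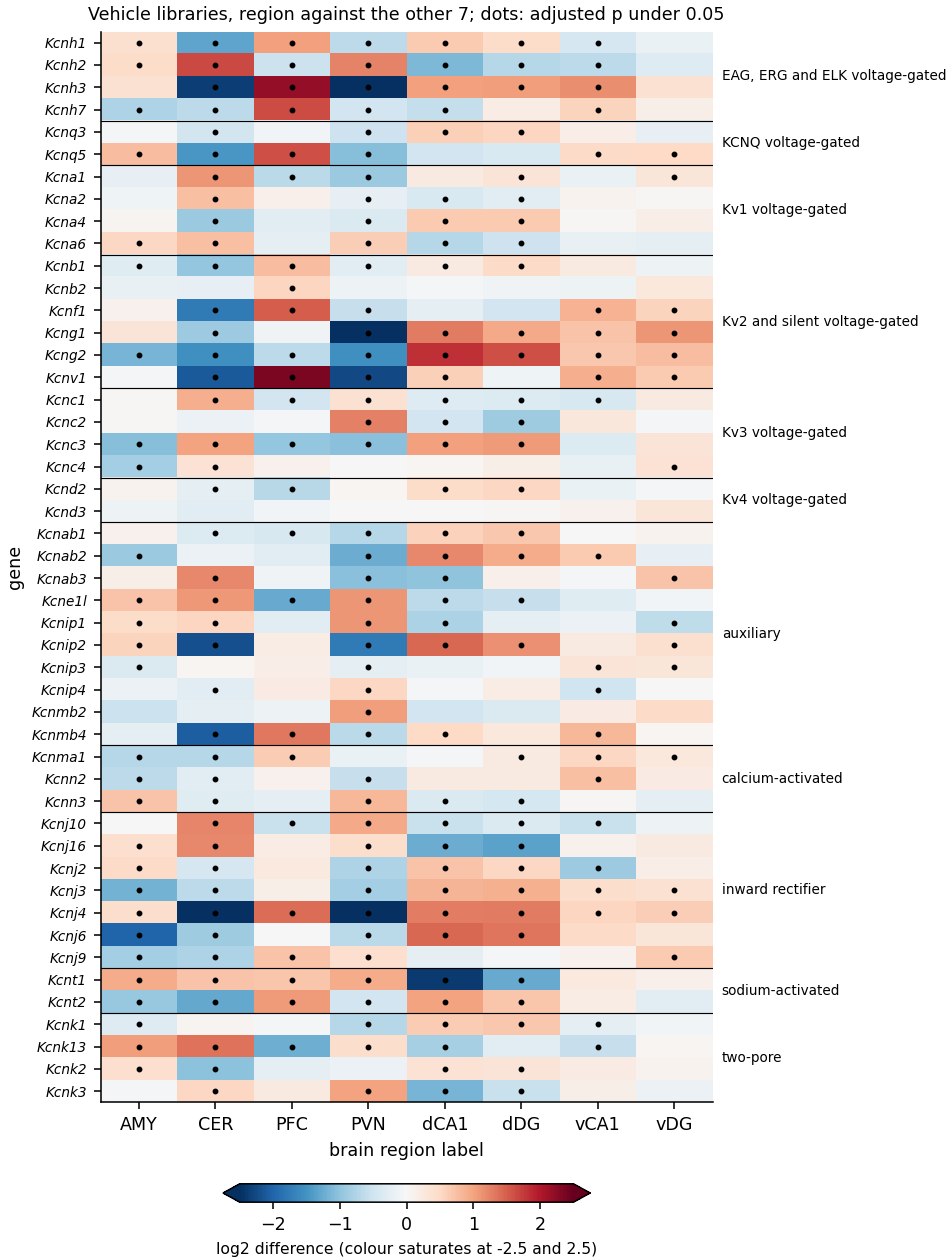
Log2 difference of each region from the mean of the other 7 in vehicle libraries, for 48 of the 49 channel genes tested (rows, by family) and 8 regions (columns), with a dot where the adjusted p was under 0.05. CER and PVN hold the most dots (41 and 42 of 48) and vDG the fewest (15 of 48).

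Kcnh3, an ELK-type voltage-gated channel of forebrain neurons, had the widest spread of region means, 44.1-fold. It lay at 65.8 to 132 CPM (median 99.6) in PFC and at 0 to 4.37 CPM (median 2.53) in PVN, so these groups did not overlap. Its contrast with the other regions was -3.84 ± 0.31, adjusted p 1.63e-20 (log2 ± SE), in PVN, and 1.16 ± 0.17, adjusted p 1.77e-08, in vCA1. Kcnv1, a silent subunit that forms no channel alone and modifies Kv2 channels, lay at 37.1 to 83.6 CPM (median 55.7) in PFC (2.35 ± 0.14, adjusted p 2.52e-29). Every PFC library was above every vehicle library of the other 7 regions, the closest being a vCA1 library at 36.9 CPM. Kcnj4, an inward rectifier of forebrain neurons, was low in CER at 0 to 66.7 CPM (median 7.20) (-2.58 ± 0.25, adjusted p 7.98e-17), whereas in PFC it lay at 99.9 to 152 CPM (median 127).

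Kcnh2, the ERG-type channel whose slow current steadies firing, gave the largest positive contrast of CER. Its CER libraries lay at 17.3 to 55.3 CPM (median 39.8) (1.65 ± 0.12, adjusted p 1.34e-22), and PVN came next at 17.5 to 40.0 CPM (median 30.4). The CER and PVN values overlapped, while the highest dCA1 library, at 13.2 CPM, lay under every CER library. In PVN the largest positive contrast was that of Kcnc2, a Kv3 channel that lets neurons fire at high rates, at 78.3 to 227 CPM (median 136) (1.26 ± 0.10, adjusted p 4.68e-20). Its PVN group overlapped with those of the other regions only at its lower end.

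Silent subunits gave the largest positive contrasts of 3 hippocampal labels. Kcng2, which modifies Kv2 channels, lay at 14.5 to 66.0 CPM (median 34.7) in dCA1 (1.82 ± 0.16, adjusted p 1.10e-18). In dDG it lay at 11.0 to 60.6 CPM (median 29.0) (1.61 ± 0.16, adjusted p 2.32e-15). These groups overlapped over most of their range, and both lay above the AMY, CER and PVN medians of 3.35, 3.43 and 4.68 CPM. Kcng1, of the same kind, lay at 3.12 to 21.1 CPM (median 13.2) in vDG (1.11 ± 0.22, adjusted p 5.80e-05) and had a median of 0 CPM in PVN. Its region mean was highest in dCA1, at 14.4 CPM.

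In the other direction, Kcnj16, an inward rectifier that pairs with Kcnj10 in astrocytes, lay at 10.7 to 42.7 CPM (median 17.5) in dDG (-1.35 ± 0.13, adjusted p 7.36e-16) and at 54.0 to 139 CPM (median 105) in CER, with no overlap between them. Kcne1l, an auxiliary subunit, was low in PFC at 4.73 to 21.0 CPM (median 12.9) (-1.27 ± 0.17, adjusted p 2.83e-10). Kcnj2, a strong inward rectifier, was low in vCA1 at 3.84 to 17.1 CPM (median 11.6) (-0.90 ± 0.18, adjusted p 3.55e-05). Kcnip1, a calcium-binding subunit of Kv4 channels, was the one member lower in vDG, at 5.28 to 23.9 CPM (median 14.4) (-0.63 ± 0.15, adjusted p 0.000899). In AMY the extremes were Kcnj6, a subunit of the G protein-gated inward rectifiers, at 0 to 8.63 CPM (median 1.31) (-2.00 ± 0.30, adjusted p 2.54e-08), and Kcnk13, a two-pore channel of microglia, at 5.18 to 20.1 CPM (median 12.5) (1.05 ± 0.17, adjusted p 2.13e-07). The region mean of Kcnk13 was highest in CER, at 15.4 CPM, and that of Kcnip1 lowest in dCA1, at 13.8 CPM.

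The second comparison asked which channel genes dexamethasone changed in each region. Of the 57 members, 47 passed the filter on low counts in at least 1 region, 32 of them in all 8, which gave 333 tests. Of these, 27 passed (8.11%, against 5.18% of the tests of all genes), in 11 genes. Kcnt1 gave 8 of the 27, Kcnk1 5 and Kcnk2 4, a gene being counted once per region. The share is therefore not spread evenly over the members. The 27 were 22 higher and 5 lower after dexamethasone, where 3.23% of the tests of all genes were higher and 1.95% lower. Kcnd1, Kcng1, Kcnj12, Kcnk10, Kcnk12, Kcnk13, Kcnmb2, Kcnn1, Kcns1 and Kcns2 were tested in no region with that filter, and were fitted with all others when it was dropped.

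By region, 2 of 42 tested members changed in AMY (4.76%, against 5.61% of all genes), 2 of 37 in CER (5.41%, against 6.18%), 2 of 43 in PFC (4.65%, against 6.14%) and 1 of 41 in dDG (2.44%, against 3.65%). These 4 shares lay near or below the background. In vCA1 3 of 44 changed (6.82%, against 5.46%), in vDG 3 of 45 (6.67%, against 3.93%), in dCA1 5 of 42 (11.9%, against 4.72%) and in PVN 9 of 39 (23.1%, against 5.67%). The median log2 fold change over the tested members lay between -0.05 in AMY and 0.03 in vCA1, and that over all genes between -0.02 and 0.00.

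Vehicle and dexamethasone libraries with the same number came from different animals but shared the plate in 115 of 115 cases and the date of punching in 109. With this number as a block 40 of the 333 tests passed, 26 of the 27 among them. The members past the threshold were then 4 in AMY (9.52%, against 7% of all genes), 3 in CER (8.11%, against 7.38%), 4 in PFC (9.3%, against 7.99%) and 4 in dDG (9.76%, against 6.42%). In vCA1 and vDG 3 passed as before (6.82%, against 4.94%, and 6.67%, against 4.64%), while dCA1 had 8 (19%, against 6.36%) and PVN 11 (28.2%, against 6.64%). Among the tests that passed with the block and not without it, Kcnj4 (-0.35 ± 0.094, adjusted p 0.0159) and the Kv1 gene Kcna4 (-0.46 ± 0.14, adjusted p 0.0348) fell in dCA1. Kcnj10, the main inward rectifier of astrocytes, fell in PVN (-0.23 ± 0.060, adjusted p 0.0123), and Kcnip2, a calcium-binding subunit of Kv4 channels, rose in dDG (0.37 ± 0.11, adjusted p 0.0466). Without the block their adjusted p lay between 0.0587 and 0.255. Kcnj4 also passed with date and plate or RNA integrity in the fit, Kcnj10 with DESeq2 or upper-quartile scaling and Kcnip2 with the dentate level as a covariate, while Kcna4 passed under no other alternative tried.

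**Figure D2:**
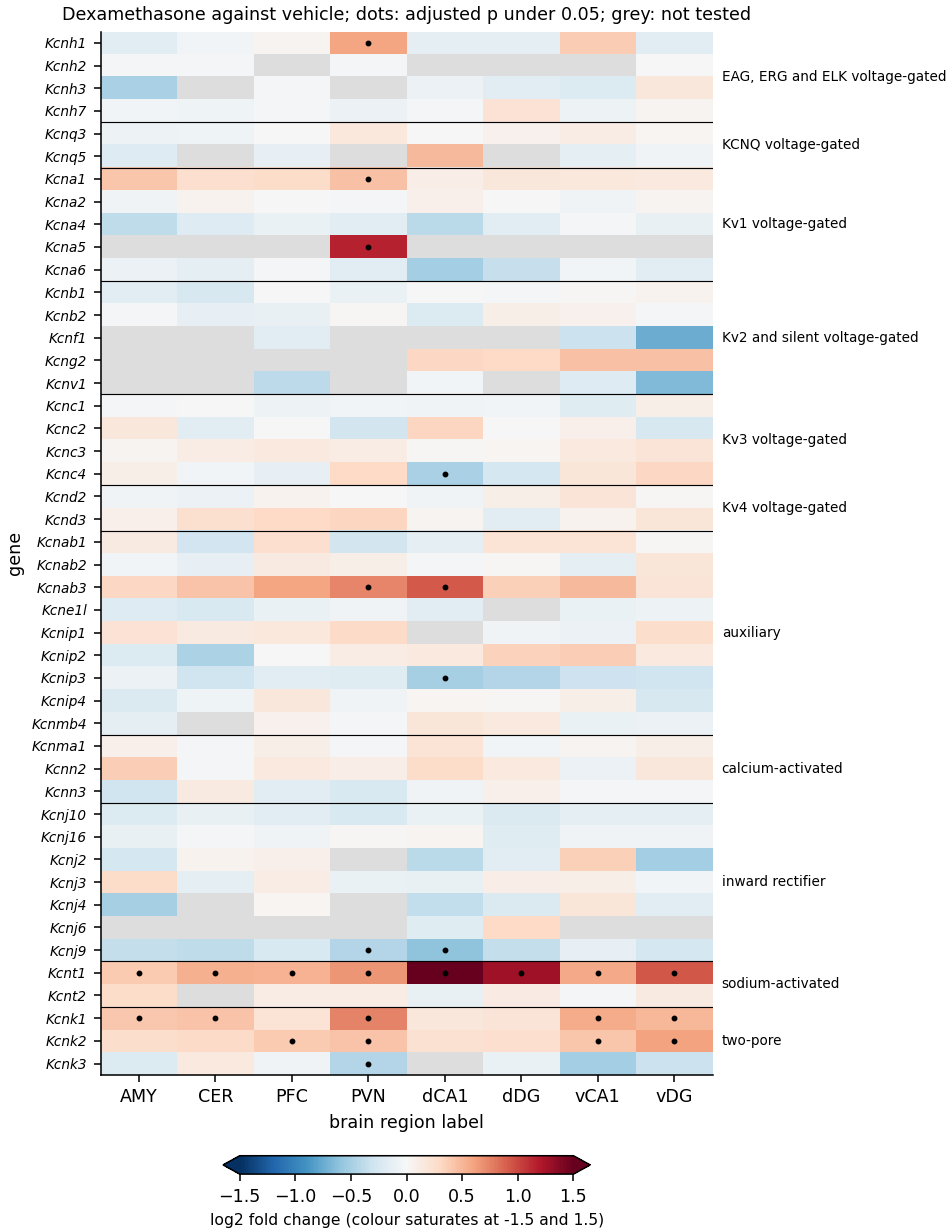
Log2 fold change of dexamethasone against vehicle for 46 of the 47 channel genes tested in at least 1 region (rows, by family) in 8 regions (columns), with a dot where the adjusted p was under 0.05 and grey where a gene was too low to be tested. Kcnt1 carries a dot in all 8 regions, Kcnk1 in 5 and Kcnk2 in 4, and PVN holds 9 of the 27 dots.

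Kcnt1 (chromosome 2, 25863734 to 25918273, plus strand, mm10) encodes a channel opened by intracellular sodium that gives a slow hyperpolarisation after bursts of spikes. It rose in all 8 regions. In dCA1 it lay between 2.47 and 17.9 CPM after vehicle (median 6.74) and between 12.0 and 61.5 CPM after dexamethasone (median 34.3), with 11 of 13 treated libraries above every vehicle library (2.26 ± 0.24, adjusted p 7.55e-09). In dDG it lay between 3.32 and 41.5 CPM after vehicle (median 10.8) and between 16.6 and 88.6 CPM after dexamethasone (median 28.1) (1.27 ± 0.31, adjusted p 0.0106). There 15 of 15 treated libraries were above the vehicle median, while 2 of 15 passed the highest vehicle library. At vehicle levels this low, Kcnt1 may have passed the filter through the treated arm alone in dCA1 and dDG. Without the filter it rose in all 8 regions as well.

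In PVN and CER the vehicle level of Kcnt1 was higher and its fold change smaller. In PVN it lay between 36.2 and 71.3 CPM after vehicle (median 53.8) and between 44.6 and 123 CPM after dexamethasone (median 80.1) (0.66 ± 0.11, adjusted p 2.67e-05). In CER it rose from a median of 46.3 CPM (19.8 to 78.3) to 70.4 CPM (45.5 to 94.0) (0.53 ± 0.13, adjusted p 0.00475). The treated libraries passed the highest vehicle library in 13 of 15 cases in PVN and in 4 of 15 in CER, so the CER groups overlapped more widely.

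In PFC Kcnt1 rose from a median of 43.5 CPM (27.0 to 70.9) to 68.6 CPM (34.5 to 102) (0.52 ± 0.14, adjusted p 0.0152). In AMY it rose from a median of 52.3 CPM (35.5 to 75.9) to 70.0 CPM (42.7 to 95.2) (0.39 ± 0.12, adjusted p 0.0370). Both pairs of groups overlapped, with 6 of 14 PFC and 7 of 15 AMY treated libraries above all vehicle libraries. The AMY call was lost when the authors' variance-stabilised values were tested with limma (adjusted p 0.0574, range over 8 alternatives 0.0225 to 0.0574).

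In the ventral labels the call on Kcnt1 depended on which libraries and terms were used. In vDG it rose from a median of 24.1 CPM (12.9 to 102) to 65.5 CPM (36.0 to 132), with 15 of 15 treated libraries above the vehicle median (0.93 ± 0.26, adjusted p 0.0313). Without dexamethasone replicate 3, which the variance-stabilised table of that region leaves out, the rise was 0.85 (adjusted p 0.0540), and without the 7 vDG libraries holding Gabra6, that one included, the rise was 1.27 (adjusted p 4.80e-06, range over 10 alternatives 4.80e-06 to 0.0540). Treated libraries above all vehicle libraries were then 8 of 12, against 3 of 15 with all libraries. In vCA1 it rose from a median of 34.9 CPM (15.6 to 88.0) to 55.4 CPM (29.1 to 76.2), and no treated library passed the highest vehicle library, replicate 15, which held Gabra6 at 254 CPM (0.57 ± 0.16, adjusted p 0.0285). Without that library the highest vehicle value was 43.5 CPM, 11 of 15 treated libraries lay above it, and the rise was 0.73 (adjusted p 0.000390). With all vehicle libraries the rise was 0.55 (adjusted p 0.0572) without dexamethasone replicates 4, 11 and 15 and 0.57 (adjusted p 0.115) with the dentate level as a covariate (range over 10 alternatives 0.000390 to 0.115). Other cell markers moved in these labels. Rorb, of cortical neurons, fell in vCA1 and vDG, and Fezf2, of the same list, and the choroid plexus marker Ttr fell in vCA1. The part of such cells in the rises was not tested.

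**Figure D3:**
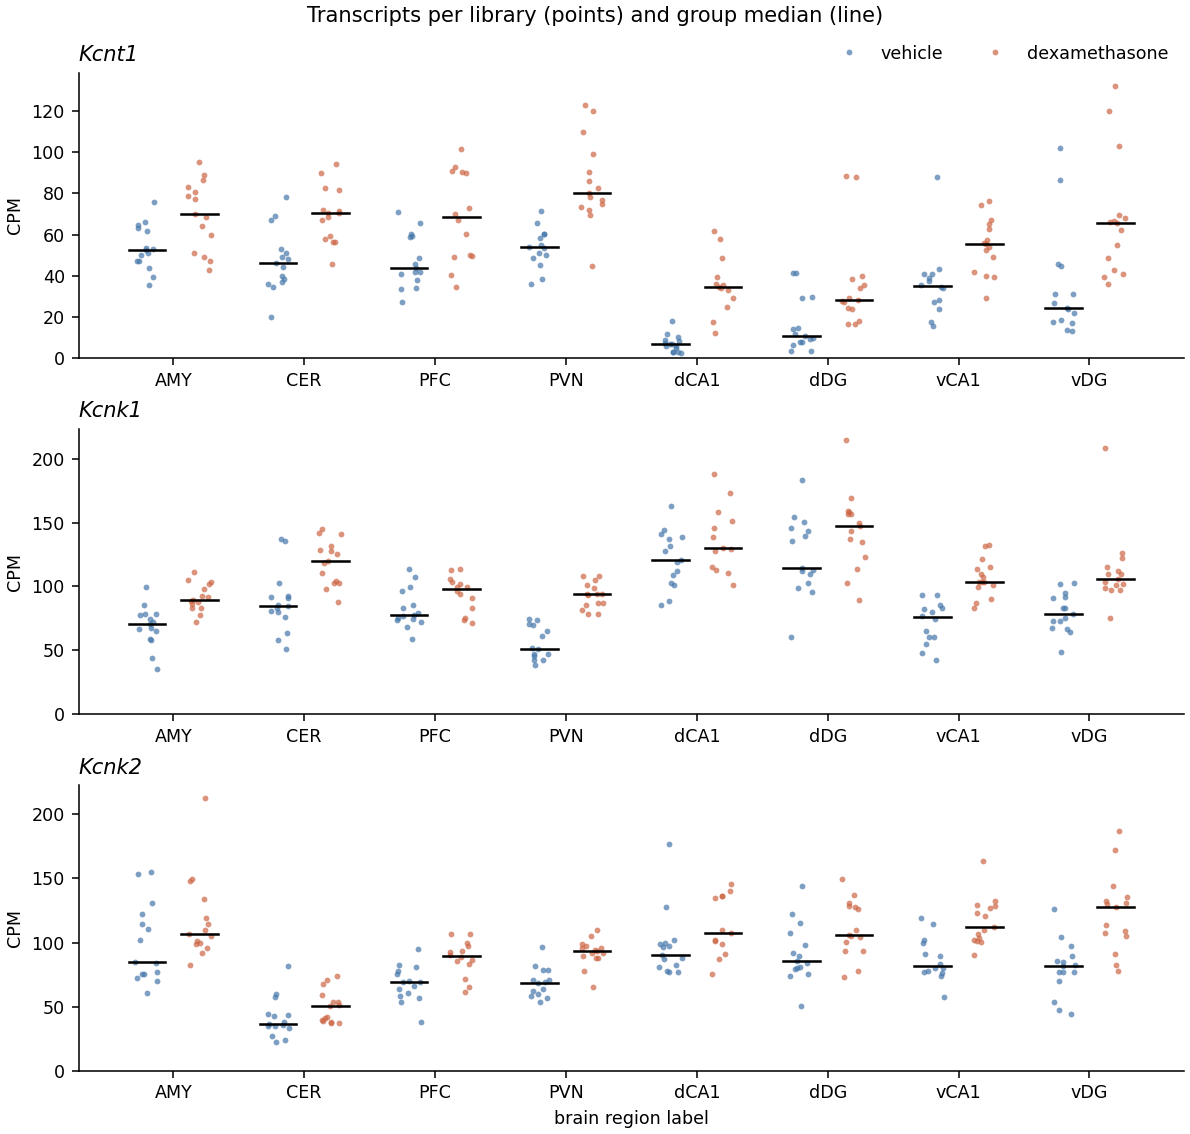
CPM of Kcnt1, Kcnk1 and Kcnk2 in each library (points) with the group median (line), for 8 regions (horizontal axis) and both arms. The Kcnt1 vehicle median is lowest in dCA1 (6.74 CPM) and dDG (10.8 CPM), and the Kcnk1 groups do not overlap in PVN.

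Libraries were made on 4 plates and punched on 5 dates. Within plates the mean log2 difference of Kcnt1 was positive in 32 of 32 combinations of region and plate, and in 31 of 32 combinations of region and date with at least 2 libraries per arm. The size of its response differed among the 8 regions (interaction F 6.10, adjusted p 0.000526). Of 52 members tested, 3 passed that test, where 1.26% of all genes did, the others being Kcnk13 (F 5.06, adjusted p 0.00402) and Kcnk1 (F 4.28, adjusted p 0.0207). Kcnk13 was too low for the filter in every region alone and entered this test because the filter ran over all libraries together. The groups where it was high may have carried it through, its vehicle medians being 15.5 CPM in CER and 3.49 CPM in PFC. The vehicle level of Kcnt1 was below that of the other regions in dCA1 (-2.38 ± 0.23, adjusted p 1.35e-16) and dDG (-1.25 ± 0.20, adjusted p 7.34e-08). Those levels and the responses share the vehicle libraries.

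The response of Kcnt1 also differed between dCA1 and vCA1, by -1.58 ± 0.32 (vCA1 minus dCA1, log2, adjusted p 0.0291). It was the one of 45 members that passed, where 0.0826% of all genes did. When the dentate level was added as a covariate, the difference was -1.17 ± 0.33 with an unadjusted p of 0.000990 and an adjusted p of 1.00, in a fit where 0 of 9683 genes passed (range over 6 alternatives 0.00230 to 1.00). Between dDG and vDG no member of 48 passed edgeR's test, nor did any of 9782 genes, and 2 members had an unadjusted p under 0.05.

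Within several hippocampal groups Kcnt1 was higher where the dentate markers were lower. Over the 15 vehicle libraries of dDG Pearson's r was -0.82 and Spearman's rho -0.88 (permutation p 5.00e-05 and 9.00e-05, adjusted over 8 relations 0.000400 and 0.000360). Over the 15 treated dDG libraries they were -0.71 and -0.62 (permutation p 0.00269 and 0.0170, adjusted 0.00717 and 0.0272). Over the 13 treated dCA1 libraries they were -0.74 and -0.87 (permutation p 0.00630 and 0.000210, adjusted 0.0126 and 0.000560). All 3 relations kept their sign without the 2 libraries farthest from the median, at r of -0.76, -0.62 and -0.81, and within plates, at -0.78, -0.66 and -0.56.

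In vDG the same relation had r of -0.58 and rho of -0.65 after vehicle (permutation p 0.0228 and 0.0107, adjusted 0.0366 and 0.0214). After dexamethasone r was -0.77 and rho -0.88 (permutation p 0.000910 and 4.00e-05, adjusted 0.00364 and 0.000320). Without the 2 farthest libraries r was -0.62 and -0.78, and within plates -0.43 and -0.81. In each vDG arm the 3 libraries with the highest Kcnt1 were libraries holding Gabra6. Without the 4 such vehicle libraries the relation did not pass (r -0.54, rho -0.59, permutation p 0.0872 and 0.0612, adjusted over 3 relations 0.131 and 0.0919, n = 11). Without the 3 such treated libraries r was -0.84 and rho -0.92 (permutation p 0.000400 and 1.00e-04, adjusted 0.00120 and 0.000300, n = 12). No relation passed in vehicle dCA1 (r -0.14, rho 0.039, permutation p adjusted 0.613 and 1.00), where Kcnt1 was lowest. Nor did one pass in vCA1, after vehicle (r 0.32, rho 0.00220, permutation p adjusted 0.300 and 1.00) or dexamethasone (r -0.32, rho -0.30, permutation p adjusted 0.300 and 0.369), nor in vehicle vCA1 without replicate 15 (r 0.35, rho 0.033, permutation p adjusted 0.241 and 0.920).

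**Figure D4:**
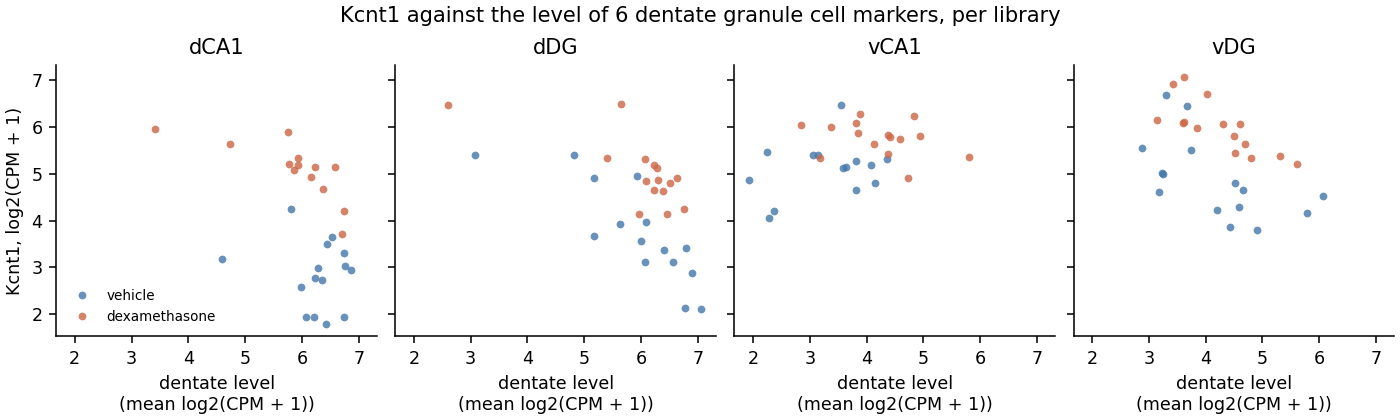
Log2(CPM + 1) of Kcnt1 (vertical axis) against the dentate level, the mean log2(CPM + 1) of 6 dentate granule cell markers (horizontal axis), for each library (points) of the 4 hippocampal labels, coloured by arm. Points fall from left to right in both arms of dDG and vDG and in the treated arm of dCA1, with r between -0.82 and -0.58 over all libraries of a group.

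With the dentate level as a covariate Kcnt1 rose by 2.01 in dCA1 (adjusted p 2.08e-09), by 1.28 in dDG (adjusted p 6.63e-05) and by 1.03 in vDG (adjusted p 0.000646). The ranges of adjusted p over all alternatives were 1.97e-16 to 8.71e-09 in dCA1 and 6.63e-05 to 0.0201 in dDG. Kcnt2, the other sodium-activated channel gene, was tested in 7 regions and passed in none, with log2 fold changes of -0.11 to 0.27.

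Two-pore channels carry the leak current that holds a cell near its resting potential. Kcnk1, a weakly conducting member, and Kcnk2, which is opened by stretch, fatty acids and heat, gave 9 of the 22 rises. Their promoter windows are shown because both genes rose in several regions, together with that of Kcnj9, an inward rectifier gene that fell in 2. Each window runs from 250 bases before to 50 bases after a RefSeq start site (GRCm38.p6), 5′ to 3′ on the gene's strand, with capitals marking AGAACA or its reverse complement TGTTCT, the arm of the glucocorticoid response element. Kcnk1 is at chr8:125994852-125995151 (plus strand), Kcnk2 at chr1:189402224-189402523 (minus strand, 1 of 4 windows of that gene) and Kcnj9 at chr1:172329273-172329572 (minus strand).
Kcnk1: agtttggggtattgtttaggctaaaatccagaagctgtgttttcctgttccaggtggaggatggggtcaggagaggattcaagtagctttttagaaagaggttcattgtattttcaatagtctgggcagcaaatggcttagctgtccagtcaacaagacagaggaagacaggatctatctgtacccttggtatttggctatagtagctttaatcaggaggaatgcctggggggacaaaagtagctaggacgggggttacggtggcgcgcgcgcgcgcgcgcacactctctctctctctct
Kcnk2: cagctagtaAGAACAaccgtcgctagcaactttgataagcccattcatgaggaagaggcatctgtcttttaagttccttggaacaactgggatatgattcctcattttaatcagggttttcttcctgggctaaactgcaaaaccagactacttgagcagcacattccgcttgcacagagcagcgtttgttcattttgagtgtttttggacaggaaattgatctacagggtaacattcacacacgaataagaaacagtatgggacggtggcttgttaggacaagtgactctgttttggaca
Kcnj9: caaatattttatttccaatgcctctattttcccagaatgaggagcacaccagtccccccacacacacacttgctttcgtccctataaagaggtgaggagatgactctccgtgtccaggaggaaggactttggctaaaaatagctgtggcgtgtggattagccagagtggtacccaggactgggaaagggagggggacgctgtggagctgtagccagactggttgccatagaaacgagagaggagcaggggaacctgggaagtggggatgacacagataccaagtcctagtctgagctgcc

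This Kcnk2 window held 1 such match, at position -241 from the start site. The other 3 windows of that gene and those of Kcnk1 and Kcnj9 held none. Both strands were searched. Of 63 windows of 41 members, 12 held AGAACA (19%), as did 6233 of 32851 windows of all genes (19%). The full element, AGAACA and TGTTCT with any 3 bases between them, was in 0 of the members' windows and in 3 of all windows (0.00913%). Kcnt1, Kcnab3, Kcna1 and Kcnk3 are among the members with no window in the table and so outside this count. A match is a run of letters and not a binding site.

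Kcnk1 (chromosome 8, 125995102 to 126030683, plus strand) rose in 5 regions. In PVN it lay between 38.7 and 75.0 CPM after vehicle (median 51.5) and between 78.4 and 109 CPM after dexamethasone (median 93.8), and the groups did not overlap (0.75 ± 0.094, adjusted p 8.03e-08). In vCA1 it lay between 42.2 and 93.7 CPM after vehicle (median 75.9) and between 83.6 and 132 CPM after dexamethasone (median 104) (0.56 ± 0.10, adjusted p 0.000175). In vDG it rose from a median of 78.3 CPM (49.1 to 102) to 106 CPM (75.4 to 209) (0.50 ± 0.11, adjusted p 0.00355). Treated libraries lay above every vehicle library in 12 of 15 cases in vCA1 and in 9 of 15 in vDG.

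Kcnk1 also rose in CER, from a median of 84.4 CPM (51.5 to 137) to 119.9 CPM (87.6 to 145) (0.43 ± 0.11, adjusted p 0.00556), and in AMY, from a median of 70.6 CPM (35.5 to 99.9) to 89.8 CPM (72.4 to 111) (0.41 ± 0.10, adjusted p 0.00382). In both regions every treated library lay above the vehicle median, while the groups overlapped. In PFC, dCA1 and dDG its changes did not pass, at 0.20 ± 0.090, adjusted p 0.250, 0.16 ± 0.094, adjusted p 0.492 and 0.19 ± 0.11, adjusted p 0.545. PVN had the lowest vehicle median of Kcnk1 and dCA1 the highest, at 121 CPM. Within plates its difference was positive in 30 of 32 combinations. Its 5 calls held under every alternative tried, as did the 4 of Kcnk2.

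Kcnk2 (chromosome 1, 189207930 to 189402273, minus strand) rose in 4 regions. In vDG it lay between 44.5 and 126 CPM after vehicle (median 81.3) and between 78.1 and 187 CPM after dexamethasone (median 128) (0.61 ± 0.13, adjusted p 0.00140). In PVN it rose from a median of 68.7 CPM (54.0 to 96.7) to 93.2 CPM (65.3 to 109) (0.42 ± 0.082, adjusted p 0.000305). In vCA1 it rose from a median of 81.8 CPM (57.6 to 119) to 112 CPM (90.4 to 163) (0.42 ± 0.095, adjusted p 0.00290). These groups overlapped, with 8 of 15, 4 of 15 and 7 of 15 treated libraries above every vehicle library.

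In PFC Kcnk2 rose from a median of 68.8 CPM (37.9 to 95.1) to 89.4 CPM (61.4 to 107), with 12 of 14 treated libraries above the vehicle median (0.39 ± 0.10, adjusted p 0.00686). In AMY, CER, dCA1 and dDG its changes of 0.23 to 0.28 did not pass, and a difference in its response among the 8 regions was not shown. Of the exon bases of Kcnk2, 12.2% overlap A430027H14Rik on the other strand, which has 575 counts against 15733 for Kcnk2. How strand was used in counting is not given in the sources used here, so their reads may not be told apart there.

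Kcnk3, an acid-sensitive two-pore channel, fell in PVN. It lay between 37.1 and 63.3 CPM after vehicle (median 45.9) and between 15.9 and 54.8 CPM after dexamethasone (median 36.6), and 9 of 15 treated libraries lay below every vehicle library (-0.43 ± 0.12, adjusted p 0.0200). In the 6 other regions where it could be tested it did not pass, with changes of -0.51 to 0.14.

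Kcnk13 encodes a two-pore channel that sets the resting potential of microglia. It was too low for the filter in every region, and its values come from the fit without it, in which the 57 members gave 456 tests and 39 passed (30 higher, 9 lower, 15 genes). In CER it lay between 2.88 and 23.4 CPM after vehicle (median 15.5) and between 1.14 and 7.77 CPM after dexamethasone (median 4.15), on means of 10.5 and 3.20 counts (-1.79 ± 0.26, adjusted p 9.16e-07). In AMY it fell from a median of 12.5 CPM (5.18 to 20.1) to 5.92 CPM (0 to 10.2) (-1.04 ± 0.23, adjusted p 0.00306). In both regions every treated library lay below the vehicle median.

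Without the filter 5 of the 57 members passed in AMY (8.77%, against 3.45% of all genes), 4 in CER (7.02%, against 3.7%), 3 in PFC (5.26%, against 4.06%) and 11 in PVN (19.3%, against 3.54%). In dCA1 6 passed (10.5%, against 3.03%), in dDG 2 (3.51%, against 2.44%), in vCA1 4 (7.02%, against 3.76%) and in vDG 4 (7.02%, against 2.69%). In the 6 other regions the changes of Kcnk13, from -0.59 to 0.23, did not pass. With limma on the authors' variance-stabilised values Kcnk13 also fell in CER (-0.60, adjusted p 7.75e-07) and AMY (-0.37, adjusted p 0.00235), on that compressed scale.

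Microglial markers moved beside it. Of 6 listed genes, Cx3cr1 and P2ry12 fell in all 8 regions and the other 4 passed in none of the regions where they could be tested. In CER the sum of the list lay between 212 and 463 CPM (median 268) after vehicle and between 107 and 215 CPM (median 160.3) after dexamethasone. In AMY it lay between 391 and 718 CPM (median 507) after vehicle and between 192 and 385 CPM (median 299) after dexamethasone. In PFC, where Kcnk13 did not pass, the median sum went from 376 to 225 CPM. No gene of the list was at 0 in a group. The part of these cells in the fall of Kcnk13 was not tested.

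**Figure D5:**
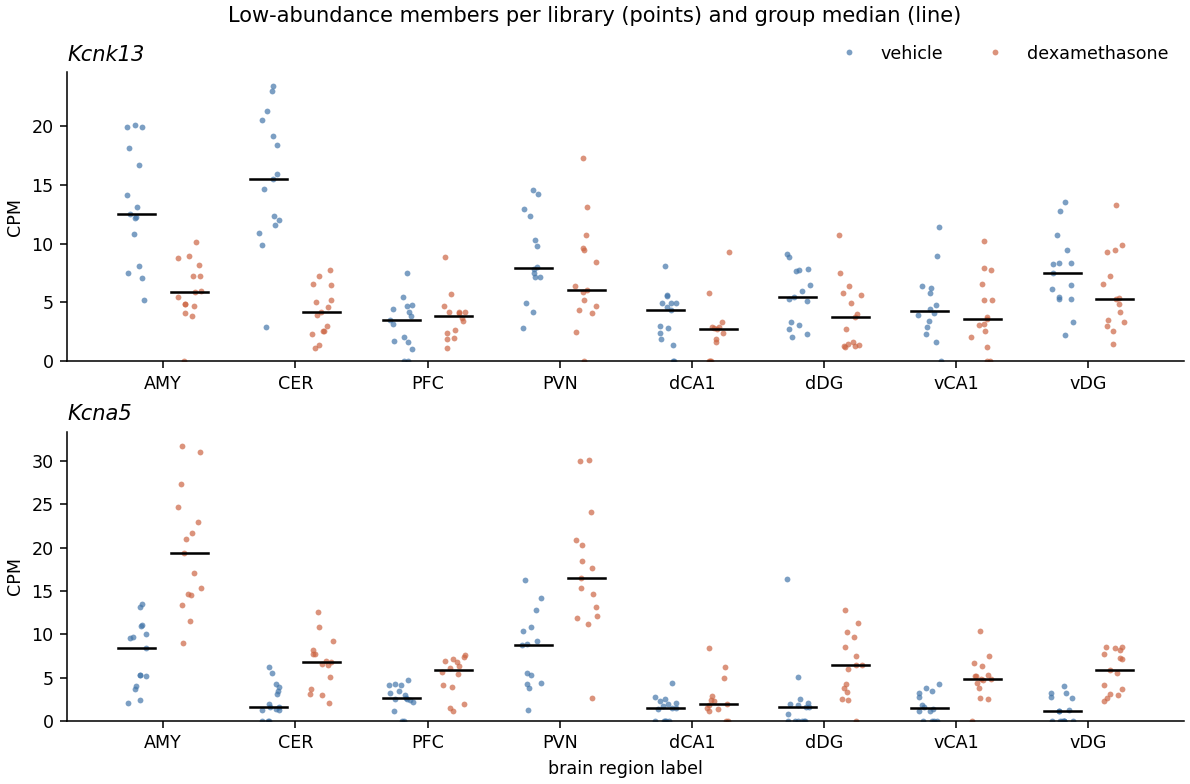
CPM of Kcnk13 and Kcna5 in each library (points) with the group median (line), for 8 regions (horizontal axis) and both arms. In the fits without the filter Kcnk13 passed as lower after dexamethasone in AMY and CER, and Kcna5 as higher in AMY, CER, PVN, dDG, vCA1 and vDG. The Kcna5 median was higher in PFC too, where the test did not pass.

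Among the Kv1 genes, which keep axons and terminals from firing repeatedly, Kcna5 and Kcna1 changed. Kcna5, a delayed rectifier also found in glia and vessel walls, passed the filter in PVN alone, where it lay between 1.19 and 16.3 CPM after vehicle (median 8.81) and between 2.61 and 30.1 CPM after dexamethasone (median 16.5) (1.16 ± 0.23, adjusted p 0.000419). Without the filter it also rose in AMY, where it lay between 2.09 and 13.5 CPM after vehicle (median 8.35) and between 8.98 and 31.8 CPM after dexamethasone (median 19.4), with 12 of 15 treated libraries above every vehicle library (1.35 ± 0.22, adjusted p 2.80e-05). It rose as well in CER (1.45 ± 0.33, adjusted p 0.00303), dDG (1.74 ± 0.45, adjusted p 0.0234), vCA1 (1.48 ± 0.38, adjusted p 0.0122) and vDG (2.02 ± 0.38, adjusted p 0.000487). In PFC and dCA1 it did not pass, at 0.88 ± 0.32, adjusted p 0.125, and 0.78 ± 0.44, adjusted p 0.537. The PFC median still went from 2.62 to 5.84 CPM, with 9 of 14 treated libraries above every vehicle library. A gene can pass the filter through its higher arm alone, and with 1050 counts of Kcna5 over all libraries its fold changes rest on few molecules. Of 6 endothelial and pericyte markers, Flt1 fell in all 8 regions and no other that could be tested passed, and none was at 0 in a group. In PVN their sum lay between 338 and 548 CPM after vehicle (median 404) and between 281 and 479 CPM after dexamethasone (median 340). The part of these cells in the rise of Kcna5 was not tested.

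Kcna1, the subunit that sets the threshold of many axons, rose in PVN, where it lay between 34.7 and 85.3 CPM after vehicle (median 61.5) and between 47.4 and 146 CPM after dexamethasone (median 77.8) (0.44 ± 0.13, adjusted p 0.0232). The groups overlapped, and 6 of 15 treated libraries lay above all vehicle libraries. In AMY its change of 0.42 ± 0.13, adjusted p 0.0534 with the filter did not pass, while it did without (0.42 ± 0.12, adjusted p 0.0416) and with the filter and the block (0.42 ± 0.088, adjusted p 0.00148).

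Kcnab3, a beta subunit that binds Kv1 channels, rose in dCA1 and PVN. In dCA1 it lay between 4.02 and 24.7 CPM after vehicle (median 10.2) and between 13.1 and 42.9 CPM after dexamethasone (median 21.2), and every treated library was above the vehicle median (0.92 ± 0.20, adjusted p 0.00174). In PVN it rose from a median of 11.1 CPM (4.99 to 20.0) to 19.7 CPM (7.58 to 39.8) (0.74 ± 0.21, adjusted p 0.0197). Both pairs of groups overlapped. Its fold change was positive in all 8 regions, at 0.20 in vDG at the lowest. At these vehicle levels Kcnab3 may have passed the filter through the treated arm alone in dCA1 and PVN. Without the filter Kcnab3 rose in the same 2 regions. With the block it also rose in PFC (0.64 ± 0.17, adjusted p 0.0127) and CER (0.42 ± 0.12, adjusted p 0.0267).

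Kcnip3, a calcium-binding subunit of Kv4 channels that also acts as a transcriptional repressor, fell in dCA1. It lay between 37.7 and 84.5 CPM after vehicle (median 44.7) and between 23.1 and 53.8 CPM after dexamethasone (median 34.0), with 9 of 13 treated libraries below every vehicle library (-0.50 ± 0.13, adjusted p 0.0130). In the other 7 regions its fold changes were negative too, from -0.44 in dDG to -0.087 in AMY, and did not pass, while with the block it also fell in dDG (-0.46 ± 0.12, adjusted p 0.0191).

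Kcnj9, a subunit of the G protein-gated inward rectifiers that slow firing when inhibitory receptors are active, fell in dCA1 and PVN. In dCA1 it lay between 28.2 and 64.0 CPM after vehicle (median 38.0) and between 15.0 and 50.5 CPM after dexamethasone (median 28.0), with 7 of 13 treated libraries below every vehicle library (-0.60 ± 0.15, adjusted p 0.00797). In PVN it fell from a median of 68.1 CPM (33.2 to 103) to 44.5 CPM (28.1 to 72.3), with 13 of 15 treated libraries below the vehicle median (-0.44 ± 0.14, adjusted p 0.0465). The PVN call was lost with DESeq2 (adjusted p 0.0503), with RNA integrity as a covariate (adjusted p 0.0589) and with limma (adjusted p 0.105, range over 8 alternatives 0.0103 to 0.105). Its fold change was negative in all 8 regions. Kcnj2 fell in PVN in the fit without the filter (-0.95 ± 0.23, adjusted p 0.00631).

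Kcnh1 and Kcnc4 passed in 1 region each. Kcnh1, an EAG-type voltage-gated channel, rose in PVN, where it lay between 17.5 and 62.9 CPM after vehicle (median 28.9) and between 28.4 and 81.1 CPM after dexamethasone (median 44.4) (0.60 ± 0.18, adjusted p 0.0301). Kcnc4, a Kv3 channel with fast inactivation, fell in dCA1, where it lay between 40.4 and 113 CPM after vehicle (median 59.0) and between 26.3 and 67.3 CPM after dexamethasone (median 46.0) (-0.49 ± 0.14, adjusted p 0.0374). Both pairs of groups overlapped. The Kcnc4 call was lost with limma (adjusted p 0.0625), with the block (adjusted p 0.0533) and with the dentate level as a covariate (adjusted p 0.0971, range over 10 alternatives 0.0289 to 0.0971).

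Beside the falls of Kcnip3, Kcnj9 and Kcnc4 in dCA1, Rorb, a marker of cortical neurons, fell there too (-0.73 ± 0.14, adjusted p 0.000706). It was the one of 4 tested markers of that list of 5 that passed. In dCA1 the list summed to between 177 and 370 CPM after vehicle (median 235) and to between 134 and 248 CPM after dexamethasone (median 167), and none of its genes was at 0 in a group. The fall of Rorb was not particular to dCA1. Rorb also fell in AMY, dDG, vCA1 and vDG, where none of these channel genes passed with the filter and without the block. In vCA1 Fezf2 fell too, and the median sum of the list went from 414 to 295 CPM. In dCA1, of 6 astrocyte markers Aqp4 fell (-0.43 ± 0.13, adjusted p 0.0477), and the median sum was 7059.9 CPM after vehicle and 6336 CPM after dexamethasone, with no gene at 0 in a group. The part of these cells in the falls was not tested.

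In PVN the 9 changed genes were Kcnt1, Kcnk1, Kcnk2, Kcna1, Kcna5, Kcnab3 and Kcnh1, which rose, and Kcnk3 and Kcnj9, which fell. Markers of PVN neurons, 6 genes such as the neuropeptides of that nucleus, summed to between 51.1 and 2216 CPM in vehicle (median 283) and to between 13.1 and 3007 CPM in treated libraries (median 962), and none of the 6 passed the test. Their part in the changes of the channel genes was not tested.

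With the filter 0 of 27 tests passed among Kv2 and silent subunits (log2 fold changes of -0.74 to 0.44), 0 of 16 among Kv4 (-0.16 to 0.32) and 0 of 24 among the calcium-activated channels (-0.29 to 0.37). Over all genes 5.18% of the tests of the 8 regions passed, so counts of 0 in so few tests lie near the background. With the block Kcnv1 fell in PFC (-0.40 ± 0.099, adjusted p 0.00535), Kcng2 rose in dCA1 (0.45 ± 0.11, adjusted p 0.0121) and Kcnn2, a small-conductance calcium-activated channel, rose in AMY (0.39 ± 0.10, adjusted p 0.0154). Without the filter 2 silent subunits passed. Kcng2 rose in PVN (0.99 ± 0.26, adjusted p 0.0179) and PFC (0.78 ± 0.22, adjusted p 0.0273), and Kcng1 fell in dCA1 (-0.83 ± 0.23, adjusted p 0.0298). The median log2 fold change of the inward rectifiers was -0.13 over 47 tests, with no test between families.

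The mean over the 8 regions was also taken for each of the 13 vehicle and 13 treated animals that had all of them, an analysis added after the data had been seen. Of 51 members, 15 changed (29.4%, against 19.1% of all genes), 9 higher and 6 lower (9.48% and 9.66% of all genes), and the median over the members was -0.01, as over all genes. Among the rises were those of Kcnt1 (0.84 ± 0.069, adjusted p 2.04e-12), Kcna5 (0.80 ± 0.092, adjusted p 9.26e-09), Kcng2 (0.40 ± 0.085, adjusted p 0.000513), Kcnk1 (0.38 ± 0.041, adjusted p 1.85e-09) and Kcnk2 (0.37 ± 0.052, adjusted p 5.54e-07). Kcnn2 rose too (0.16 ± 0.056, adjusted p 0.0404). The falls were those of Kcnk13 (-0.40), Kcng1 (-0.33), Kcnj9 (-0.33), Kcnip3 (-0.27), Kcnf1 (-0.27) and Kcnk3 (-0.21). With counts summed per animal in place of mean log values 16 passed, these 15 among them, and the order changed. Kcna5 then rose by 1.24, Kcnt1 by 0.65, Kcng2 by 0.46, Kcnk2 by 0.40 and Kcnk1 by 0.37, and Kcnk13 changed by -0.66.

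Of 30 genes listed as partners of the channels, such as clustering proteins, calmodulins and HCN channels, 24 could be tested in at least 1 region, and 3 of 179 tests passed (1.68%, against 5.18% over all genes). All 3 were of Nedd4l, a ubiquitin ligase that removes channels from the membrane. It rose in PFC (0.41 ± 0.073, adjusted p 9.12e-05), PVN (0.41 ± 0.080, adjusted p 0.000324) and vCA1 (0.42 ± 0.095, adjusted p 0.00243). In PFC its mean went from 199.5 ± 27.6 to 262 ± 31.2 CPM (SD, n = 15 and 14).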

How the data were processed

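3′ RNA tags with molecular identifiers (QuantSeq) were counted in 235 libraries of 8 mouse brain regions. Per the submitters' processing notes, FastQC 0.11.4, cutadapt, UMI-tools 0.5.4, STAR 2.6.0a, featureCounts 1.6.4, DESeq2 1.30.1 and R 4.0.5 were used with mm10, and how strand was used is not given in the sources used here. The deposited table holds raw counts per gene. The authors also deposited variance-stabilised values on a log2 scale for 228 libraries, which served as an alternative.

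Each region was tested with edgeR 4.0.16 (R 4.3.3, quasi-likelihood, TMM, filterByExpr, Benjamini-Hochberg over all genes tested, threshold 0.05). Interactions and vehicle levels had the animal as a block. Fold changes are log2 ± SE. DESeq2 1.42.0, upper-quartile scaling, no filter, at least 10 counts in every library, replicate block, date and plate, RNA integrity, the dentate level, limma 3.58.1 and left-out libraries were alternatives. Correlations used 100000 permutations (scipy 1.17.1). The fits were tested on simulated data.

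Vehicle and treated libraries with the same number come from different animals, but per the labels they share the plate in 115 of 115 pairs and the date in 109, so the number pairs them by batch. Their deviations correlated by over 0.1 in 64 pairs, and 29 libraries correlated best with their own number. The main fits leave this block out, and it is given where it changes a call or a count. Animals are the replicates, and library totals of 268538 to 1451422 counts give low genes few counts. Named were Kcnt1, members changed in at least 2 regions, the smallest p of each region, members past an interaction test and the extremes of each region in vehicle. Other members past the threshold, with or without the filter or the block, were named after their values were seen. Of the members, 1 is counted but not reported by name here, and the heat maps leave it out. The members and lists were chosen with earlier results of these data known.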

Additional observations from a re-analysis of the deposited data

Results flagged for a closer look

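In 4 cases a test of the difference itself found that the response to dexamethasone was not the same in all regions. Among all 8 regions the response differed for Kcnt1 (interaction F 6.10), with log2 fold changes from 0.39 in AMY to 2.26 in dCA1. It differed for Kcnk13 (interaction F 5.06), from -1.79 in CER to 0.23 in PFC without the filter. Kcnk13 passed the filter over all libraries together and in no region alone. The response differed for Kcnk1 (interaction F 4.28), from 0.16 in dCA1 to 0.75 in PVN. Between dCA1 and vCA1 the response of Kcnt1 differed by -1.58 (vCA1 minus dCA1), and by -1.17 with the dentate level as a covariate, where it did not pass (unadjusted p 0.000990, adjusted p 1.00 in edgeR) and 0 of all genes did.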

How the results depend on the processing

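No result reversed its direction under an alternative. Of the 27 calls on members in the main fits, Kcnt1 gave 8, Kcnk1 5 and Kcnk2 4. The 27 tests of members past the threshold over the 8 regions (8.11%, against 5.18% of the tests of all genes) became 28 (8.41%) with DESeq2, upper-quartile scaling or RNA integrity as a covariate (against 5.51%, 5.2% and 5.27%). They became 34 with date and plate (10.2%, against 5.92%), 39 of 456 with no filter (8.55%, against 3.33%) and 18 of 214 with at least 10 counts in every library (8.41%, against 5.02%). Limma gave 38 of 456 (8.33%, against 4.89% of 103478 tests of all genes). Its values, its 228 libraries and its set of genes, that of the authors' tables, all differed at once. The number of members past the threshold in AMY went from 2 to 5 with no filter and to 4 with date and plate or limma. In CER it went from 2 to 4 with no filter or limma, and in PFC from 2 to 4 with date and plate. In dCA1 it went from 5 to 2 with at least 10 counts, where the other 3 genes were not tested. In dDG it went from 1 to 2 with no filter or limma, to 3 with the dentate level and to 0 with at least 10 counts, where Kcnt1 was not tested. With at least 10 counts 1 member passed in the interaction among all 8 regions, Kcnk1, and 0 in that of dCA1 with vCA1, since Kcnt1 and Kcnk13 were not tested there. With the dentate level the latter was also at 0.

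With the replicate block, which joins libraries of 1 plate and nearly always 1 date, 40 tests passed (12.0%, against 6.41%), with 4 members in AMY, 4 in PFC, 8 in dCA1 and 4 in dDG. It added 14 calls, lost that of Kcnc4 in dCA1 (adjusted p 0.0533) and changed no other of the 27.

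Over all genes, at least 10 counts in every library lowered the calls from 483 to 293 in AMY, 558 to 286 in CER, 565 to 345 in PFC, 526 to 286 in PVN, 411 to 233 in dCA1, 312 to 188 in dDG, 498 to 290 in vCA1, 366 to 195 in vDG, 139 to 30 in the interaction of all regions and 8 to 1 in that of dCA1 with vCA1. In dDG the block gave 549 and limma 479. The dentate level gave 280 in vCA1 and 0 in the interaction of dCA1 with vCA1. The dCA1 and vCA1 interaction gave 2 genes without the animal block and 19 without the libraries holding Gabra6, a setting added after seeing the data. In that setting the relation of Kcnt1 with the dentate level in vehicle vDG no longer passed (r -0.54, permutation p 0.0872, n = 11), while r was -0.58 over all 15 libraries. Where not stated, the cause of a change was not tested. Depth limits the low members, such as Kcnk13 in CER with a mean of 3.20 counts after dexamethasone.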
